A study of Mus musculus with 13 samples.

Results

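The inward rectifier and ATP-sensitive potassium channel genes were compared between sinoatrial pacemaker cells (PC) and right atrial cardiomyocytes (RACM) of neonatal mice. The 9 genes were chosen by their symbols, by the current each channel carries, out of 55487 annotated gene IDs in the count table. They fall into 3 current classes. Kcnj2, Kcnj12 and Kcnj4 encode pores of the background inward rectifier current IK1. Kcnj3 and Kcnj5 encode the pore subunits of the acetylcholine-activated current IKACh. Kcnj8 and Kcnj11 encode pores, and Abcc8 and Abcc9 regulatory sulfonylurea receptors, of the ATP-sensitive (KATP) channel.

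RNA of 3 PC and 3 RACM libraries, numbered p0, p2 and p4 in each cell type, was sequenced after amplification of cDNA. Both cell types were sorted from dissected sinoatrial node and right atrium junctions of neonatal hearts carrying the reporters Hcn4-GFP and Myh6-mCherry, so the controls carry both reporters too. Hcn4 and Myh6 drive those reporters in pacemaker cells and in heart muscle, and the sort itself selects on them. Each library is 1 pool of 8 to 10 hearts, which the labels call a biological replicate. The labels give neither the exact age or strain, nor what the p number stands for, nor whether libraries that share a number share a pool.

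Inward rectifier channels pass potassium current more easily into the cell than out of it, because internal magnesium and polyamines block the pore at positive voltages. In working heart muscle, IK1 holds the resting potential near the potassium equilibrium potential. Sinoatrial pacemaker cells are known for a small IK1, which lets their membrane depolarise slowly between beats. IKACh opens when the vagal transmitter acetylcholine activates the muscarinic M2 receptor and frees G protein beta-gamma subunits, and it slows the heart rate. KATP channels close when ATP is high and open when it falls, with 4 pore and 4 receptor subunits in each channel.

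The count totals were 14141151 to 22290996 fragments per library. Libraries of the same cell type differed well beyond counting noise (chi-square per degree of freedom 29.5 to 74.6), so none was counted as a repeat of another. Hcn4, the pacemaker current channel, averaged 2612 ± 93.4 CPM (counts scaled to library size) in PC and 48.6 ± 15.3 CPM in RACM (SD, n = 3 each). Myh6, the atrial myosin heavy chain, averaged 17060 ± 2205 CPM in PC and 16600 ± 4666 CPM in RACM. The level of Hcn4 thus followed the labels, and the muscle marker Myh6 was high in both cell types. Markers of other cells were also present: 10 fibroblast markers summed to 999 to 2473 CPM in PC and 2069 to 12770 CPM in RACM, the highest in RACM p4. In RACM p4 the sum of 8 cardiomyocyte markers was also the lowest, 66560 CPM, against 95580 to 112400 CPM in the other libraries. Differences below were also run without RACM p4, without both p4 libraries and scaled to that cardiomyocyte sum. That scale lowers PC values relative to RACM, and 3 of the 8 markers were themselves higher in PC without overlap. On it the median log2 fold change of all tested genes, PC minus RACM, was -0.34, against 0.01 in the main fit. In bulk libraries, fewer cells of a type and less RNA per cell cannot be told apart.

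Among the 9 genes, 3 were lower in PC: Kcnj2 (Kir2.1), Abcc8 (the sulfonylurea receptor SUR1) and Abcc9 (SUR2). None was called higher in PC, 5 tested genes did not pass the threshold, and Kcnj4 was too low to test. The call was an adjusted p below 0.05 in edgeR's quasi-likelihood test over 18015 genes, of which 7.27% were called, 3.57% lower and 3.69% higher in PC. These were 644 lower and 665 higher genes, against 845 lower and 301 higher when scaled to the cardiomyocyte markers. With the p number as a replicate block, which called 11.6% of all genes, 4 were lower and 1 was higher, with Kcnj8 and Kcnj5 added. DESeq2 also called Kcnj5 higher, in a fit that called 1118 genes higher and 1186 lower over all tested genes. All 9 genes were filtered alike, and 8 of the 9 passed the filter on low counts. The fold change is PC minus RACM on the log2 scale in every sentence that follows, and its standard error (SE) comes from the same fit.

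**Figure D1:**
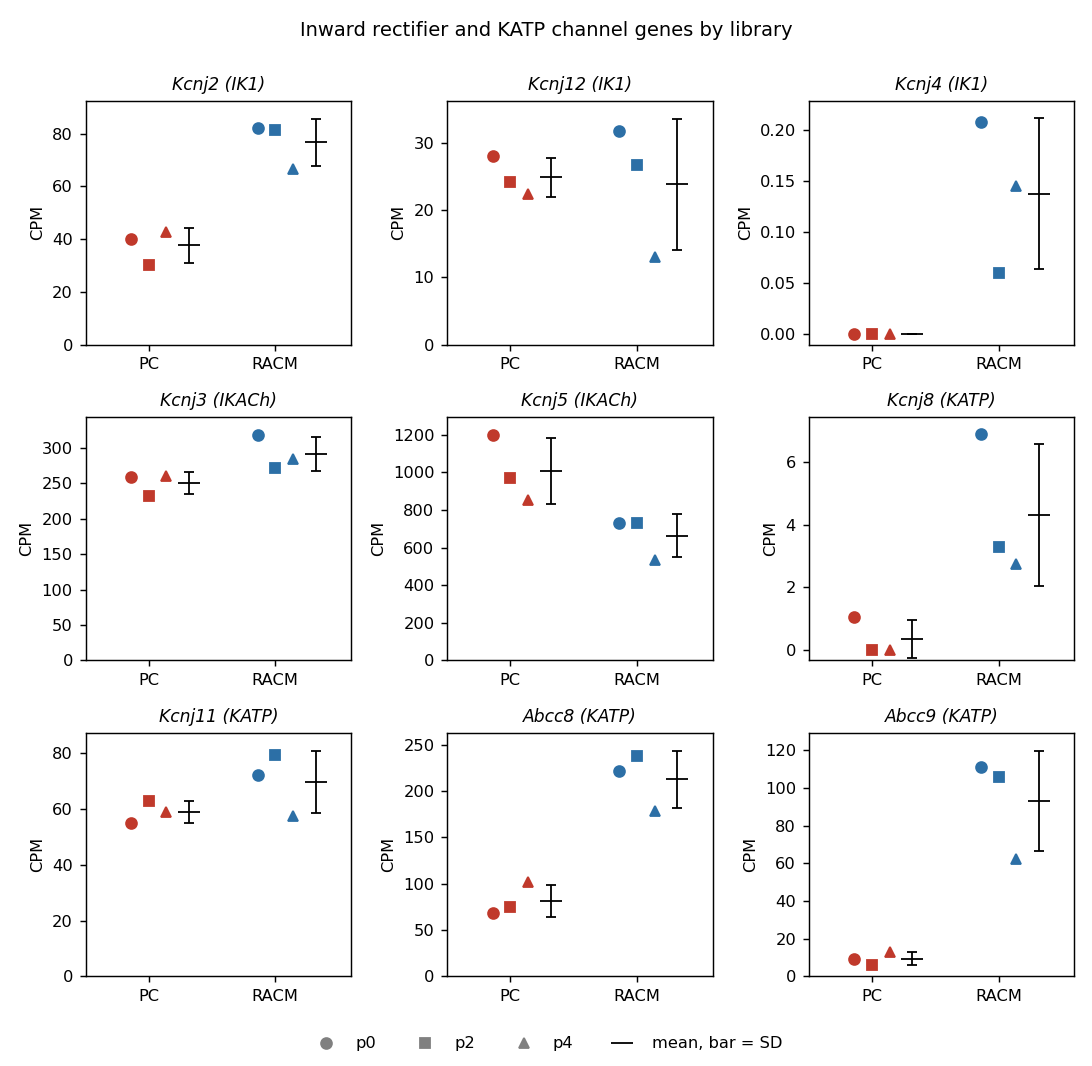
CPM of each of the 9 channel genes in the 3 PC libraries (red, left) and the 3 RACM libraries (blue, right), with the mean and SD beside the points and marker shapes for p0, p2 and p4. Kcnj2, Abcc8 and Abcc9 lie lower in every PC library than in any RACM library, Kcnj5 lies higher, and Kcnj12 and Kcnj11 overlap.

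The plot of CPM by library shows 3 kinds of pattern. In Kcnj2, Kcnj3, Kcnj8, Abcc8 and Abcc9, and in the untested Kcnj4, every PC library was below every RACM library. In Kcnj5 every PC library was above every RACM library. Kcnj12 and Kcnj11 overlapped. Over all tested genes, 13.4% were lower and 13.5% higher without overlap. RACM p4 was the lowest RACM library for Kcnj2, Kcnj12, Kcnj5, Kcnj8, Kcnj11, Abcc8 and Abcc9.

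**Figure D2:**
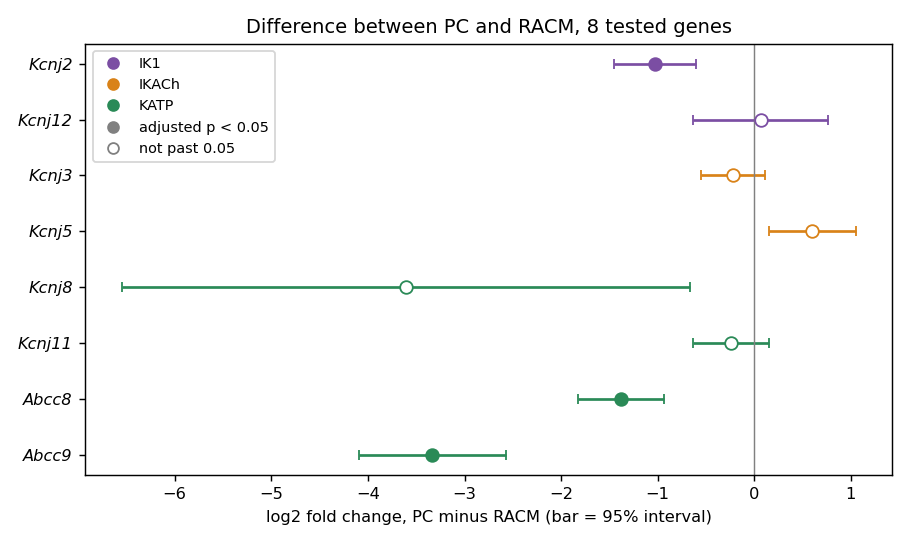
Log2 fold change, PC minus RACM, of the 8 tested channel genes with its 95% interval from the edgeR fit, coloured by current class. Filled points passed an adjusted p of 0.05 (Kcnj2 at -1.03, Abcc8 at -1.38 and Abcc9 at -3.33), and the interval of Kcnj8 is the widest.

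Kcnj2 encodes Kir2.1, a main pore of IK1 in heart muscle. The gene (ENSMUSG00000041695) lies at chr11:111066164-111076821 on the plus strand of mm10. It had 40.0, 30.3 and 42.7 CPM in PC (p0, p2, p4), against 82.3, 81.2 and 66.5 CPM in RACM (p0, p2, p4). The highest PC library was below the lowest RACM library. The means were 37.6 ± 6.52 CPM in PC and 76.7 ± 8.82 CPM in RACM (SD, n = 3 each), a log2 fold change of -1.03 (SE 0.19, 95% interval -1.45 to -0.60, edgeR adjusted p = 0.014). The call was lost without PC p0 (log2 fold change -1.07, edgeR adjusted p = 0.0541) and without RACM p2 (-0.98, edgeR adjusted p = 0.0709), within a range of adjusted p from 6.04e-05 to 0.0709 over all alternatives. Scaling to the cardiomyocyte markers lowers PC values relative to RACM, so it is no separate support for Kcnj2. On that scale Kcnj2 stood at 26.9 to 41.3 in PC and 84.4 to 100.0 in RACM per 100000 CPM of those markers.

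Kcnj12 encodes Kir2.2, another IK1 pore (ENSMUSG00000042529, chr11:61022564-61071131, plus strand). It had 28.0, 24.3 and 22.4 CPM in PC (p0, p2, p4), against 31.8, 26.7 and 13.0 CPM in RACM (p0, p2, p4). The PC values lie inside the RACM range, which RACM p4 widens at its lower end. The means were 24.9 ± 2.88 CPM in PC and 23.9 ± 9.72 CPM in RACM (SD, n = 3 each). The log2 fold change was 0.06 (SE 0.31, edgeR adjusted p = 0.937), with an interval of -0.64 to 0.77 that leaves a difference of either sign. Its sign turned in several alternatives, among them leaving out RACM p4 (-0.23) and scaling to the cardiomyocyte markers (-0.20).

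Kcnj4 encodes Kir2.3 (ENSMUSG00000044216, chr15:79483714-79505241, minus strand). It had 0 counts in all 3 PC libraries and 3, 1 and 3 counts in RACM (p0, p2, p4). A count of 0 allows up to 0.142 to 0.17 CPM in PC, taking 3 counts as the floor. RACM stood at or under its own floor of 3 counts per library, so no fold is given.

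The make-up of IK1 transcripts was put on a per-length scale. Levels per kilobase of exon (RPKM) were computed from CPM and the deposited exon length. Kcnj2 made up 41.9, 38.7 and 49.0% of the summed IK1 RPKM in PC (p0, p2, p4), against 56.4, 60.5 and 71.8% in RACM (p0, p2, p4). Kcnj12 took nearly all the remainder. The ratio of Kcnj12 to Kcnj2 RPKM was 1.39, 1.59 and 1.04 in PC (p0, p2, p4), and 0.766, 0.65 and 0.388 in RACM (p0, p2, p4). By RPKM, Kcnj12 was thus above Kcnj2 in each PC library and below it in each RACM library. The PC order depends on dividing by exon length. In CPM, Kcnj2 was above Kcnj12 in PC too, at 30.3 to 42.7 against 22.4 to 28.0 CPM. The summed IK1 RPKM was 17.5, 14.4 and 15.98 in PC (p0, p2, p4) and 26.8, 24.7 and 17.0 in RACM (p0, p2, p4), where PC p0 overlaps RACM p4. In TPM, the per-length level that scales each library to its own total, the same sums were 27.1 to 28.9 in PC and 32.5 to 59.9 in RACM, without overlap.

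**Figure D3:**
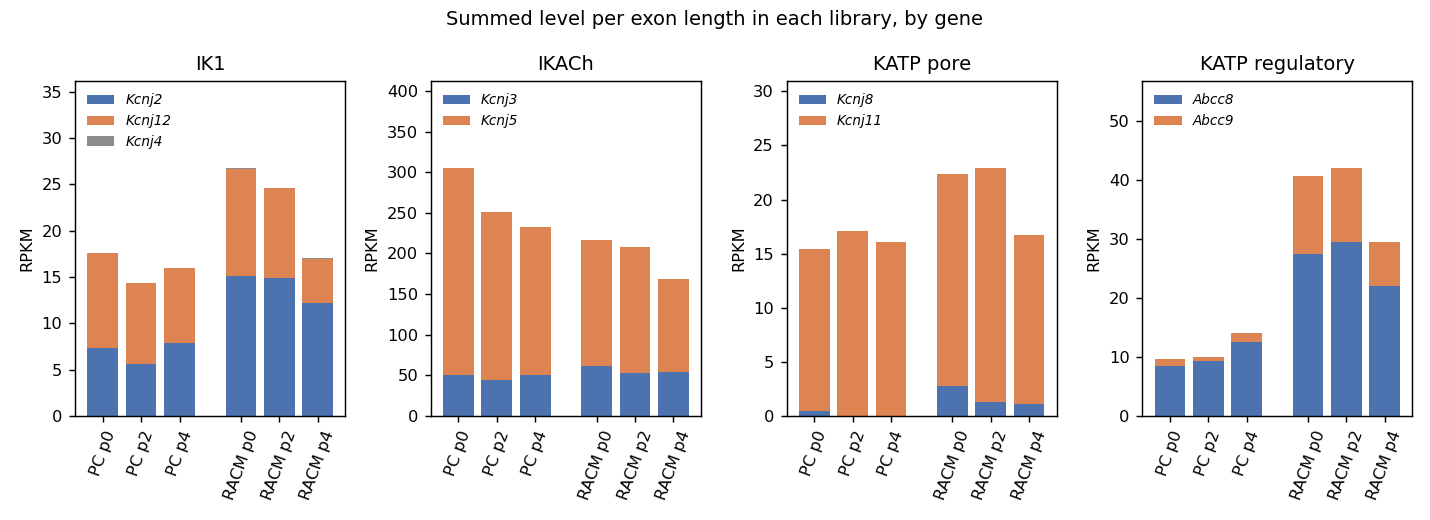
Stacked bars of RPKM of each channel gene in the 3 PC libraries (left in each panel) and 3 RACM libraries (right), with 1 panel each for IK1, IKACh, KATP pores and KATP regulatory subunits; each panel has its own axis. The summed regulatory subunits lie at 9.59 to 14.0 RPKM in PC and 29.4 to 42.0 RPKM in RACM, while the IK1 sums overlap.

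The stacked bars of RPKM by class set the shares beside the sums. Class sums and shares are descriptions of these 6 libraries and were not tested. A share moves when either gene of its class moves.

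Kcnj5 encodes Kir3.4 (GIRK4), which joins Kir3.1 to form the IKACh channel (ENSMUSG00000032034, chr9:32314707-32344350, minus strand). It had 1199, 971 and 855 CPM in PC (p0, p2, p4), against 730, 730 and 533 CPM in RACM (p0, p2, p4). Every PC library was above every RACM library. The means were 1008 ± 175 CPM in PC and 664 ± 114 CPM in RACM (SD, n = 3 each), a log2 fold change of 0.60 (SE 0.20, 95% interval 0.16 to 1.05). The edgeR adjusted p was 0.111 without the block, 0.0189 with the replicate block in edgeR, and 0.0381 with DESeq2, in a range of 0.0189 to 0.444 over all alternatives. Per 100000 CPM of cardiomyocyte markers, Kcnj5 was 828 to 1143 in PC and 749 to 800 in RACM, still without overlap but with a narrow gap.

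Kcnj3 encodes Kir3.1 (GIRK1), the other IKACh pore subunit (ENSMUSG00000026824, chr2:55435970-55598145, plus strand). It had 259, 232 and 260 CPM in PC (p0, p2, p4), against 318, 272 and 284 CPM in RACM (p0, p2, p4). The groups did not overlap but lay close together. The log2 fold change of -0.22 (SE 0.15, 95% interval -0.55 to 0.11, edgeR adjusted p = 0.459) did not pass the threshold.

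Kcnj3 libraries were lower and Kcnj5 libraries higher in PC than in RACM, and their ratio was set beside them. The ratio of Kcnj3 to Kcnj5 RPKM was 0.194, 0.215 and 0.274 in PC (p0, p2, p4), against 0.392, 0.335 and 0.479 in RACM (p0, p2, p4). Kcnj3 made up 16.2 to 21.5% of IKACh RPKM in PC and 25.1 to 32.4% in RACM. The summed IKACh RPKM was 306, 252 and 232 in PC (p0, p2, p4) and 217, 208 and 168 in RACM (p0, p2, p4), without overlap. In TPM the sums were 420 to 495 in PC and 321 to 484 in RACM and did overlap.

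Abcc9 encodes SUR2, the sulfonylurea receptor of ventricular muscle and vascular KATP channels (ENSMUSG00000030249, chr6:142587862-142702315, minus strand). It had 9.14, 5.77 and 12.7 CPM in PC (p0, p2, p4), against 111, 106 and 62.4 CPM in RACM (p0, p2, p4). Even RACM p4, its lowest RACM library, stood well above every PC library. The means were 9.21 ± 3.47 CPM in PC and 93.1 ± 26.7 CPM in RACM (SD, n = 3 each), a log2 fold change of -3.33 (SE 0.34, 95% interval -4.09 to -2.57, edgeR adjusted p = 0.000795). The call held in each of the 15 alternatives, with fold changes of -3.88 to -3.08. Of its exon bases, 1.89% are shared with 5330439B14Rik, and counting was unstranded, so reads there cannot be told apart.

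Abcc8 encodes SUR1, the sulfonylurea receptor known from pancreatic beta cells and, in mice, from atrial muscle (ENSMUSG00000040136, chr7:46104523-46180033, minus strand). It had 68.7, 74.8 and 101 CPM in PC (p0, p2, p4), against 222, 238 and 178 CPM in RACM (p0, p2, p4). The groups did not overlap. The means were 81.6 ± 17.3 CPM in PC and 212 ± 30.9 CPM in RACM (SD, n = 3 each), a log2 fold change of -1.38 (SE 0.20, 95% interval -1.83 to -0.93, edgeR adjusted p = 0.0046). It too was called in each of the 15 alternatives, at -1.70 to -1.27.

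Kcnj11 encodes Kir6.2, the KATP pore that pairs with either receptor in heart muscle (ENSMUSG00000096146, chr7:46093953-46100764, minus strand). It had 55.1, 63.0 and 59.1 CPM in PC (p0, p2, p4), against 72.3, 79.6 and 57.5 CPM in RACM (p0, p2, p4). The overlap came from RACM p4, which lay below PC p2 and p4. The log2 fold change was -0.24 (SE 0.17, 95% interval -0.63 to 0.15, edgeR adjusted p = 0.493). Per 100000 CPM of cardiomyocyte markers, Kcnj11 was 52.6 to 57.2 in PC and 74.1 to 86.5 in RACM, without overlap, but the edgeR fit on that scale did not call it (-0.56, adjusted p = 0.166, the lowest of a range up to 0.852).

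Kcnj8 encodes Kir6.1, the pore of vascular KATP channels (ENSMUSG00000030247, chr6:142564837-142571614, minus strand). It had 19, 0 and 0 counts in PC (p0, p2, p4), against 100, 55 and 57 counts in RACM (p0, p2, p4). In CPM these were 1.06, 0 and 0 in PC and 6.91, 3.29 and 2.74 in RACM. A count of 0 allows up to 0.17 CPM in PC p2 and 0.142 CPM in PC p4. PC p0 alone carried reads among PC libraries, yet lay below every RACM library. Kcnj8 thus passed the filter on low counts through its RACM libraries, and its place among the tested genes rests on its RACM level. Over the summed counts, RACM exceeded PC 12.2-fold, with an exact binomial 95% interval of 7.62 to 20.7 that covers counting error only. The log2 fold change of -3.60 (SE 1.30, 95% interval -6.54 to -0.66) had an edgeR adjusted p of 0.144. It was called with the replicate block (-4.78, edgeR adjusted p = 0.035), with no filter on low counts (-3.60, edgeR adjusted p = 0.00724) and without PC p0 (edgeR adjusted p = 0.019), in a range of 0.00724 to 0.319. Without PC p0 all PC counts are 0, so the fitted fold there is no bound.

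KATP pore and receptor genes differed by unequal amounts. The summed receptor RPKM over the summed pore RPKM was 0.622, 0.58 and 0.874 in PC (p0, p2, p4), against 1.82, 1.83 and 1.76 in RACM (p0, p2, p4). By RPKM, pores stood above receptors in each PC library, and receptors above pores in each RACM library. The PC order depends on dividing by exon length. In CPM the receptor sums were above the pore sums in PC too, at 77.9 to 113.9 against 56.2 to 63.0 CPM. Abcc9 made up 11.4, 6.94 and 10.8% of the receptor RPKM in PC (p0, p2, p4), against 32.6, 30.1 and 25.3% in RACM (p0, p2, p4). Kcnj11 made up 97.3 to 100% of the pore RPKM in PC and 87.9 to 94.4% in RACM.

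In order of mean RPKM, Kcnj5 (215) and Kcnj3 (48.0) led in PC, followed by Kcnj11 (16.1), Abcc8 (10.1), Kcnj12 (9.05), Kcnj2 (6.91), Abcc9 (1.10), Kcnj8 (0.139) and Kcnj4 (0). Among neighbours in that order, only Abcc8 with Kcnj12 and Kcnj8 with Kcnj4 overlapped across PC libraries. In RACM the order was Kcnj5 (142), Kcnj3 (55.9), Abcc8 (26.3), Kcnj11 (19.0), Kcnj2 (14.1), Abcc9 (11.1), Kcnj12 (8.67), Kcnj8 (1.69) and Kcnj4 (0.0637). There Kcnj2 overlapped Abcc9, and Abcc9 overlapped Kcnj12. Kcnj5 and Kcnj3 were the highest of the 9 in both cell types. By RPKM, Abcc8 stood below Kcnj11 in PC and above it in RACM. In CPM, without division by exon length, Abcc8 was above Kcnj11 in PC too, at 68.7 to 101 against 55.1 to 63.0 CPM.

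The KATP genes lie in 2 neighbouring pairs. Kcnj8 and Abcc9 are 16247 bases apart on chromosome 6, and Kcnj11 and Abcc8 are 3758 bases apart on chromosome 7, each pair on the minus strand with no annotated gene between. In the chromosome 6 pair, both genes were lower in every PC library than in any RACM library, with only Abcc9 called. In the chromosome 7 pair, Abcc8 was called lower in PC and Kcnj11 was not.

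Promoters from RefSeq (GRCm38.p6) were matched for 7 of the 9 genes. The 250 bases before the start of 4 of them are shown, because Kcnj8 and Abcc9 are neighbours with the 2 largest fold changes and Kcnj2 and Kcnj5 stand on opposite sides of RACM. They lie at chr11:111065914-111066163 (Kcnj2, plus strand), chr9:32344345-32344594 (Kcnj5, minus), chr6:142571615-142571864 (Kcnj8, minus) and chr6:142702275-142702524 (Abcc9, minus), read 5′ to 3′ along the gene. Capitals mark matches on either strand to the E-box CANNTG, the GC box GGGCGG and the NKX2-5-type element (NKE) AAGTG.
Kcnj2: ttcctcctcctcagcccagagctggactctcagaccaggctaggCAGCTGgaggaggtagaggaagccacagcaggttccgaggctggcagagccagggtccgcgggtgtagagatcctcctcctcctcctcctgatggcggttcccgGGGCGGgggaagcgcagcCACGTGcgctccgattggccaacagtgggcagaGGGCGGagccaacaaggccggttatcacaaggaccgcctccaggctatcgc
Kcnj5: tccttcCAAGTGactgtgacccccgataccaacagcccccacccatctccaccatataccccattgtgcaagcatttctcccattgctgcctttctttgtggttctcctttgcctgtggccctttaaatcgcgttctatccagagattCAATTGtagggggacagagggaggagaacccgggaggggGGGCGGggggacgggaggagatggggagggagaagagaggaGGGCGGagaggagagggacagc
Kcnj8: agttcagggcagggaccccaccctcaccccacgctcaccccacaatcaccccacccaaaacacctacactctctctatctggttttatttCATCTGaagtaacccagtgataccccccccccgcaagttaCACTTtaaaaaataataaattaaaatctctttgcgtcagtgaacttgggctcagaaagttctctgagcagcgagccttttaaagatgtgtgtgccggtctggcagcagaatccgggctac
Abcc9: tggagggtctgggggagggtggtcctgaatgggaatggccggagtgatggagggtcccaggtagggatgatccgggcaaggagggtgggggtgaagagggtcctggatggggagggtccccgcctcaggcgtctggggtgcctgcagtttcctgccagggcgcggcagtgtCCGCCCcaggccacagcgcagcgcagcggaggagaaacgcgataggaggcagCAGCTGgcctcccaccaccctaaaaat
The Kcnj2 window holds 2 E-boxes and 2 GC boxes. The Kcnj5 window holds 2 E-boxes, 2 GC boxes and an NKE that lies inside an E-box match. The Kcnj8 window holds 1 E-box and 1 NKE on the other strand, and no GC box. The Abcc9 window holds 1 E-box and 1 GC box on the other strand. The T-box core GGTGTG and the GATA motif AGATAA were searched as well and matched none of the 4. Among the matched promoters not shown, that of Kcnj3 holds a T-box core on the other strand, at -39 to -34 from the start. Over all 32851 promoter windows of this length, 66.2% hold the E-box, 40.7% the NKE, 32.7% the GC box, 16.3% the T-box core and 10.0% the GATA motif, so a match in 1 window is common. GC content was 49.2% in Kcnj8, 58.0% in Kcnj5, 65.6% in Kcnj2 and 66.8% in Abcc9. A match is a description of letters and not a binding site.

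Kcnj8 and Abcc9 are also known markers of pericytes, the mural cells of small vessels, so the remaining 10 pericyte markers were set beside them. Their summed level was 247, 171 and 184 CPM in PC (p0, p2, p4), against 270, 317 and 501 CPM in RACM (p0, p2, p4). Mcam was a large part of these sums, at 94.1 to 148 CPM in PC and 97.1 to 166.5 CPM in RACM. Of the 10, 4 were lower and 1 was higher in PC without overlap, against 13.4% lower and 13.5% higher over all tested genes. Vtn was at 0 to 0.223 CPM in PC and 0.0691 to 0.144 CPM in RACM. Higd1b was at 0 to 0.223 CPM in PC and 0 to 1.20 CPM in RACM. Pdgfrb, a defining pericyte receptor, had 7.97, 1.64 and 6.47 CPM in PC (p0, p2, p4), against 19.8, 49.4 and 73.1 CPM in RACM (p0, p2, p4) (log2 fold change -3.14, SE 0.61, edgeR adjusted p = 0.0171). Cspg4 (NG2) ran the other way, with 32.8 to 44.5 CPM in PC and 11.7 to 19.8 CPM in RACM (1.27, SE 0.24, edgeR adjusted p = 0.0171). Rgs5 had 11.1 to 31.8 CPM in PC and 40.2 to 185 CPM in RACM (-1.98, SE 0.57, edgeR adjusted p = 0.0749). Notch3 (-2.74, edgeR adjusted p = 0.0346) and Ndufa4l2 (-2.43, edgeR adjusted p = 0.0421) were called lower in PC. RACM p4 had the highest pericyte and fibroblast sums and the lowest Abcc9 and Kcnj8 CPM of the RACM libraries. For Kcnj8 this is nearly a tie, 2.74 CPM (57 counts) against 3.29 CPM (55 counts) in RACM p2. Single pericyte markers differed. Over RACM p0, p2 and p4, Mcam fell (166.5, 132.6 and 97.1 CPM) and Rgs5 rose (40.2, 65.7 and 185 CPM). Macrophage markers moved with the cell type too: the PC sums were 9.67 to 39.9 CPM and the RACM sums 162 to 676 CPM. Among vessel cells, endothelial markers summed to 51.0 to 122 CPM in PC and 136 to 199 CPM in RACM, while smooth muscle markers summed to 1271 to 1661 CPM in PC and 705 to 815 CPM in RACM. The part of these other cells in the levels of Abcc9 and Kcnj8 was not tested.

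**Figure D4:**
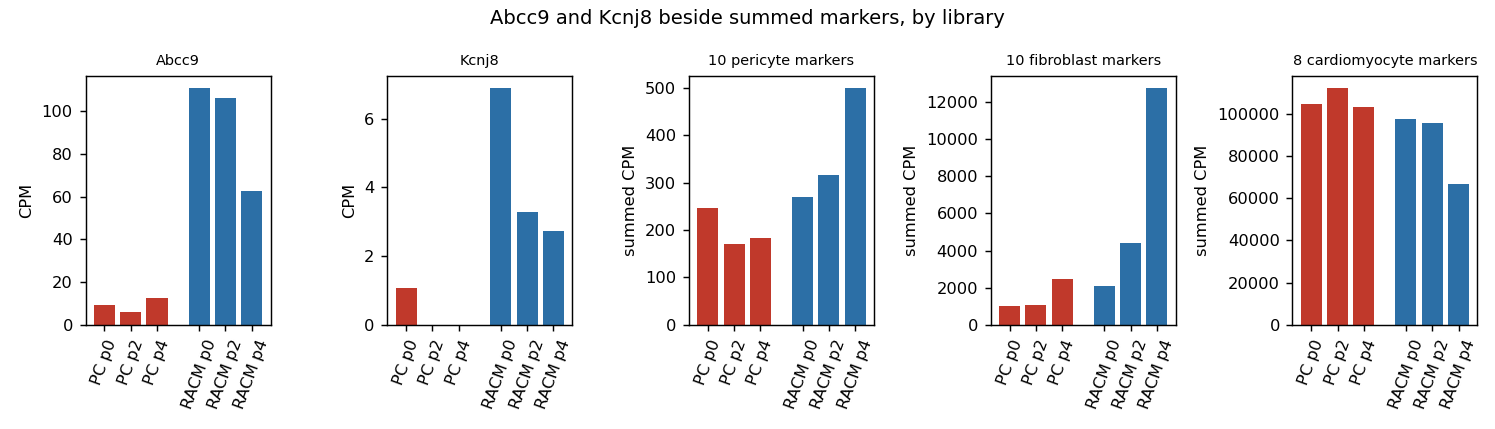
Bars per library, PC left and RACM right, of Abcc9 and Kcnj8 (CPM) and of the summed pericyte, fibroblast and cardiomyocyte markers (summed CPM; Abcc9 and Kcnj8 left out of the pericyte sum). In RACM p4 the pericyte and fibroblast sums are the highest, at 501 and 12770 CPM, while Abcc9 is the lowest RACM value, at 62.4 CPM.

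The bars of Abcc9, Kcnj8 and the summed markers put these values library by library. Abcc9 per 100000 CPM of cardiomyocyte markers was 5.13 to 12.3 in PC and 93.7 to 114 in RACM. On that scale, which lowers the median of all genes by 0.34 on the log2 scale, its edgeR adjusted p was 0.000167, below the largest adjusted p of its alternatives, 0.00918.

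Other members of the Kir family were near absent. Of 8 further Kir genes, 4 passed the filter and none was called in either direction in edgeR (median log2 fold change 0.17, against 0.01 over all tested genes). The highest, Kcnj13, averaged 1.68 ± 0.47 CPM in PC and 1.67 ± 0.72 CPM in RACM (SD, n = 3 each). Its value is uncertain, since 49.1% of its exon bases are shared with Gigyf2 and counting ignored strand.

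Genes that switch IKACh were compared next, from the receptors to the proteins that end the G protein signal. Of 30 listed genes, 27 were tested, with a median log2 fold change of 0.04. In PC 4 were called higher and 3 lower, against 3.69% and 3.57% of all tested genes. With the replicate block 5 each were called, against 11.6% of all tested genes in both directions together. The M2 receptor gene Chrm2 had 220 to 239 CPM in PC and 207 to 235 CPM in RACM, and its log2 fold change of 0.06 had an interval of -0.25 to 0.38 (edgeR adjusted p = 0.856). The adenosine A1 receptor gene Adora1, which also feeds IKACh, had 54.4, 63.9 and 46.1 CPM in PC (p0, p2, p4), against 11.3, 11.2 and 6.78 CPM in RACM (p0, p2, p4) (2.49, SE 0.25, edgeR adjusted p = 0.000829). Of the Adora1 exon bases, 20.1% are shared with Mybph. The M3 receptor gene Chrm3 had 0 counts in PC and 48 counts in RACM, at least 17.5-fold lower in PC against a floor of 3 counts over the group. The list's median is the same with Chrm3 at that bound. Chrm3 passed the filter on low counts through its RACM libraries alone.

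Proteins of the RGS family speed the shut-off of G proteins and with it the closing of IKACh. Rgs4 had 96.6, 122 and 72 CPM in PC (p0, p2, p4), against 0.691, 0.598 and 1.64 CPM in RACM (p0, p2, p4). It was the largest rise of the list (6.58, SE 0.41, edgeR adjusted p = 4.38e-05). Rgs6, an RGS protein known to restrain the vagal response of the mouse heart, had 209, 292 and 220 CPM in PC (p0, p2, p4), against 73.3, 90.4 and 53.9 CPM in RACM (p0, p2, p4) (1.73, SE 0.23, edgeR adjusted p = 0.00299). Rgs3 averaged 35.7 ± 1.16 CPM in PC and 16.5 ± 0.39 CPM in RACM (1.11, edgeR adjusted p = 0.00746), and lost its call when scaled to the cardiomyocyte markers (0.76, edgeR adjusted p = 0.145, the highest of its alternatives). Rgs2, which acts mainly on Gq, moved the other way, with 12.3, 12.7 and 11.2 CPM in PC (p0, p2, p4) against 81.8, 64.5 and 62.2 CPM in RACM (p0, p2, p4) (-2.52, SE 0.19, edgeR adjusted p = 0.00015). Of the 8 RGS genes listed, 3 thus rose, 1 fell and 4 did not pass the threshold. Among those 4, Rgs5, given as a pericyte marker above, was lower in every PC library than in any RACM library and was called with the replicate block (-1.85, edgeR adjusted p = 0.0322, in a range of 2.02e-05 to 0.217 over its alternatives), which makes 2 lower. The gamma subunit gene Gng12 fell by 0.88 on the log2 scale (edgeR adjusted p = 0.0199) but lost its call unless the library left out was PC p2 or RACM p0 (up to 0.0961). Chrm3 lost its call when any 1 library was left out (edgeR adjusted p 0.0517 to 0.116).

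Partners of Kir2 channels (scaffolds, caveolin and the enzymes that make PIP2, the lipid that keeps Kir pores open) were mostly not called. Of 20 listed genes, 19 were tested, 1 was higher and 1 lower in PC (median -0.04). Over all tested genes, 3.69% were called higher and 3.57% lower, or 11.6% in both directions together with the replicate block. With the replicate block 2 were higher and 1 lower, since Pip5k1c, a kinase that makes PIP2, was then called (0.77, edgeR adjusted p = 0.0406, against 0.81 and 0.0676 without the block). It averaged 70.8 ± 20.8 CPM in PC and 40.5 ± 2.35 CPM in RACM (SD, n = 3 each), and DESeq2 also called it (adjusted p = 0.0189, in a range of 0.013 to 0.357 over its alternatives). Cav3, muscle caveolin, averaged 97.8 ± 11.6 CPM in PC and 57.7 ± 10.5 CPM in RACM (0.76, SE 0.18, edgeR adjusted p = 0.0392). Flna, the actin crosslinker filamin A, averaged 151 ± 27.6 CPM in PC and 305 ± 85.7 CPM in RACM (-1.01, SE 0.24, edgeR adjusted p = 0.0369). Either call was lost when any library except RACM p0 was left out, with an edgeR adjusted p of up to 0.177 for Cav3 and 0.141 for Flna. Flna is also abundant in fibroblasts and vessels. The fibroblast sums above were 999 to 2473 CPM in PC and 2069 to 12770 CPM in RACM. Endothelial sums were 51.0 to 122 CPM in PC and 136 to 199 CPM in RACM. Smooth muscle sums ran the other way, with 1271 to 1661 CPM in PC and 705 to 815 CPM in RACM. The part of these cells in the Flna level was not tested.

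Regulators of KATP channels (kinases, energy-buffering and glycolytic enzymes, adaptors) were compared last among the partners. Of 18 genes, all tested, 5 were higher and none was lower (median 0.41), against 3.69% higher and 3.57% lower over all tested genes. With the replicate block 6 were higher and 1 lower, against 11.6% of all tested genes in both directions together. Prkg1, the cyclic GMP-dependent kinase, had 143, 123 and 109 CPM in PC (p0, p2, p4), against 54.8, 67.5 and 65.4 CPM in RACM (p0, p2, p4) (0.997, SE 0.17, edgeR adjusted p = 0.00985). Prkaca, the catalytic subunit of protein kinase A, averaged 202 ± 31.2 CPM in PC and 116 ± 4.95 CPM in RACM (0.80, edgeR adjusted p = 0.0217). Prkca, protein kinase C alpha, averaged 88.2 ± 3.69 CPM in PC and 52.3 ± 4.79 CPM in RACM (0.75, edgeR adjusted p = 0.0202). Pkm, pyruvate kinase, was higher by 0.79 (edgeR adjusted p = 0.0397), although 15.3% of its exons overlap another gene, and Cav3 is the fifth. Scaled to the cardiomyocyte markers none of these 5 was called, Prkg1 standing at 0.64 (edgeR adjusted p = 0.182). With a single library left out, the call of Prkaca held only for PC p0 or RACM p0 (otherwise up to 0.104), that of Prkca only for PC p4 or RACM p0 (otherwise up to 0.0876), and that of Pkm only for PC p2 or RACM p0 (otherwise up to 0.177).

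**Figure D5:**
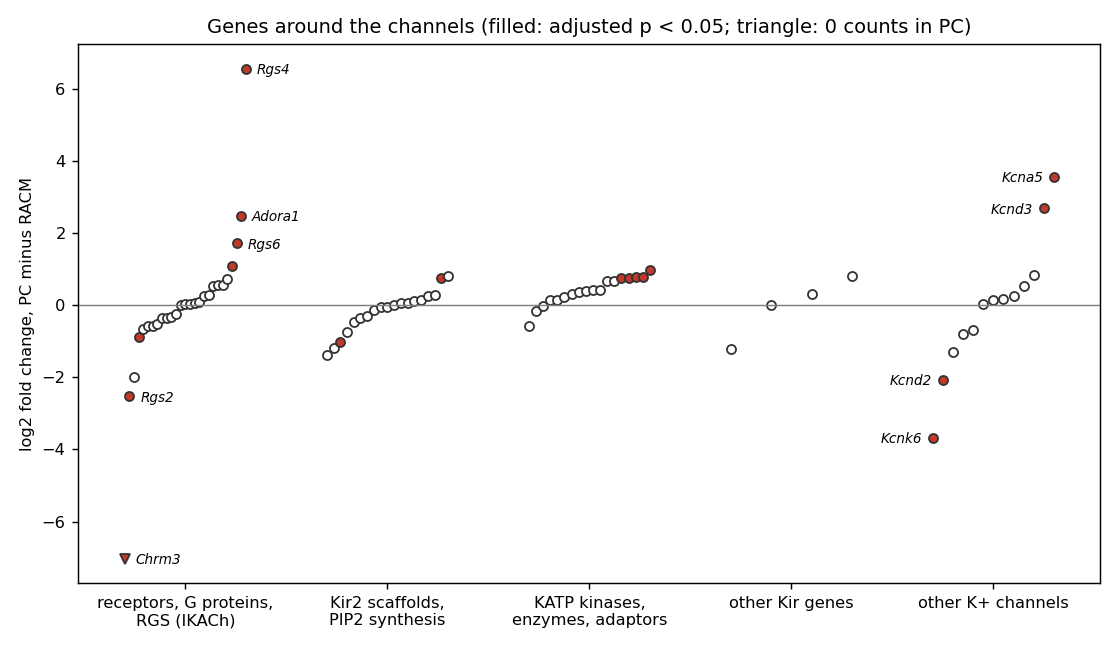
Log2 fold change, PC minus RACM, of each tested gene in 5 lists around the channels, with filled points for an edgeR adjusted p below 0.05 and a triangle for Chrm3, whose fitted value is no bound because PC had 0 counts. Rgs4 at 6.58 and Kcna5 at 3.58 are the highest of their lists, and no further Kir gene was called.

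The plot of the genes around the channels also shows other potassium channels of atrial muscle. Of 15 listed, 13 were tested, 2 were higher and 2 lower in PC (median 0.15), or 2 and 1 with the replicate block. The shares over all tested genes, without the block, were 3.69% higher and 3.57% lower. With the block the share was 11.6%, both directions together. Kcnd3, the transient outward channel Kv4.3, had 21.6, 16.8 and 12.5 CPM in PC (p0, p2, p4), against 3.52, 1.85 and 2.45 CPM in RACM (p0, p2, p4) (2.70, SE 0.37, edgeR adjusted p = 0.00374). Of the Kcnd3 exon bases, 1.72% are shared with another gene. Its partner channel Kcnd2 (Kv4.2) ran the other way, averaging 1.40 ± 0.29 CPM in PC and 5.88 ± 0.79 CPM in RACM (-2.07, edgeR adjusted p = 0.0246). Kcna5 (Kv1.5) was low in both, averaging 4.66 ± 1.43 CPM in PC and 0.375 ± 0.27 CPM in RACM (3.58, edgeR adjusted p = 0.0212). Kcnk6, a two-pore-domain channel gene, averaged 0.274 ± 0.21 CPM in PC and 3.52 ± 3.02 CPM in RACM (-3.67, edgeR adjusted p = 0.045; 0.0842 with the replicate block). Kcnd2 lost its call when any 1 library was left out (edgeR adjusted p up to 0.102), Kcna5 without PC p2, PC p4 or RACM p2 (up to 0.0849), and Kcnk6 when any library except RACM p0 was (up to 0.235).

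For 4 of the channel genes, the 3 most alike profiles were looked up among 10393 genes, as the root mean square difference of centred log2 CPM over the 6 libraries. For Kcnj2 these were Itm2c (0.118), Tbc1d1 (0.136) and Naf1 (0.136). For Kcnj3 they were Zfp386 (0.0417), Mta2 (0.044) and Klhl31 (0.0477). For Kcnj8 they were Slc39a8 (0.362), Angpt1 (0.462) and Ifih1 (0.472), and for Abcc9 Elf4 (0.393), Eya1 (0.432) and Cdh20 (0.487). The distances of Kcnj8 and Abcc9 are larger than those of Kcnj2 and Kcnj3, so their nearest genes are less near. The zinc transporter Slc39a8 had mean levels of 29.3 ± 11.9 (PC) and 175 ± 31.1 CPM (RACM), a difference of -2.58. For Elf4, a transcription factor of the ETS family, they were 4.51 ± 2.58 (PC) and 50.1 ± 6.43 CPM (RACM), a difference of -3.47. Both were picked because their profiles follow Kcnj8 or Abcc9, so their lower PC level comes with the choice and is no test result.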

How the data were processed

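The deposited table gives unnormalised fragment counts; per the file headers, the authors ran featureCounts 2.0.1 on exons of an mm10 annotation, ignoring strand. Its gene length (another column the authors deposited) equals the summed exon length. The submitters' processing notes also name Trimmomatic, HISAT2 and edgeR. RNA came from pools of 8 to 10 hearts, per the labels' protocols, and 7 ATAC-seq samples were not analysed here.

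Counts were filtered (filterByExpr, minimum count 10, total 15) and scaled by TMM. They were tested in edgeR 4.0.16 (glmQLFit and glmQLFTest, 2-sided, R 4.3.3) with Benjamini-Hochberg adjustment at 0.05, checked on simulated data. In that simulation edgeR recovered 16% of 2-fold and 66% of 4-fold changes, so a gene not called may still differ. There edgeR called 7 unchanged genes and DESeq2 called 43. The standard error is the absolute log2 fold change over the square root of F. With 3 libraries against 3, an exact permutation test cannot go below p = 0.1, so none is given. Counting intervals and the 3-count floor hold counting error only, since reads were amplified. CPM and RPKM use TMM-scaled sizes, and 14141151 to 22290996 counts per library limit the low genes.

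The main fit did not pair the libraries, and the p numbers served as pairs only in the replicate-block alternative. That pairing is a hint from the data and not from the labels. Deviations of same-numbered libraries from the group means correlated by 0.156, 0.234 and 0.237, each above 0.1. Members and lists were chosen with earlier results of these data known, and 1 listed gene was taken out of its list afterwards and is not reported here. Named genes are the 9 members, called genes of each list up to 6 of smallest p with the first of opposite sign, the 3 nearest profiles (mean of at least 5 CPM, pseudocount 0.5) and 5 markers by value; any other gene was chosen after its values were seen. Scaling, filters, the block, DESeq2 1.42.0, limma-voom (3.58.1) and left-out libraries were tried as alternatives, and scaling to 8 cardiomyocyte markers was chosen after seeing the data.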

Additional observations from a re-analysis of the deposited data

How the results depend on the processing

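Of the 9 channel genes, Abcc8 and Abcc9 kept their call in all 15 alternatives. Kcnj2 ranged from -1.12 to -0.88 on the log2 scale when 1 library was left out, with its call lost at -1.07 (without PC p0) and -0.98 (without RACM p2). Kcnj12 turned its sign without both p4 libraries (-0.18) and when scaled to the cardiomyocyte markers (-0.20), and left-out libraries gave -0.23 to 0.33. Kcnj5 passed with the replicate block (0.60) and DESeq2 (0.59), each making 1 channel gene higher. Kcnj8 passed with no filter (-3.60) and the replicate block (-4.78), and left-out libraries gave -9.29, with all PC counts at 0, to -2.99. The block changed no other channel gene's call. Among the channel genes called lower, 2 were left without RACM p2 (Abcc8 and Abcc9).

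Over all genes, 665 were higher and 644 lower in PC. These counts were 1052 and 1287 with no filter, 1074 and 1008 with the replicate block, 1118 and 1186 with DESeq2, and 378 and 356 without both p4 libraries. Left-out libraries gave 304 to 658 higher and 207 to 680 lower, and the cardiomyocyte scaling gave 301 higher and 845 lower. Of the genes in the 5 lists around the channels, 11 were higher and 6 lower, with Cav3 counted once. The lists held 4, 27, 19, 18 and 13 tested genes. Over all tested genes 3.69% were called higher and 3.57% lower, and the all-gene counts just given moved with the same settings. Left-out libraries gave 6 to 14 higher and 1 to 5 lower, the p4 pair left out gave 6 and 1, and the cardiomyocyte scaling gave 5 and 7. By counts without length, Kcnj2 made up 60.0% of IK1 in PC and 76.9% in RACM, against 43.2% in PC and 62.9% in RACM by RPKM. The causes were not tested. Genes at a few counts, such as Kcnj4, are limited by depth.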
